A study of Mus musculus with 19 samples.

Results

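Complement is a cascade of secreted proteins that tags and punctures foreign or damaged cells. The classical and alternative routes converge on C3, and cleaved C3 feeds a terminal route in which C5 starts the assembly of a membrane pore. Regulators in plasma and on host membranes hold the cascade in check, and the alveolar type II (ATII) cell of the lung is a known local source of several components. Here 6 complement genes, chosen by name, were followed of 53558 genes listed in the files: Hc, which encodes C5, the first protein of the terminal route; C3, the central component; C4b, a component of the classical and lectin routes; Cfb, factor B of the alternative route; Serping1, the plasma inhibitor of the C1 proteases; and Cd55, decay accelerating factor, a membrane protein that breaks up C3 convertases. All 6 passed the filter on low counts that 13986 genes passed.

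The cells were neoplastic cells sorted from lung tumors of R26LSL-tdTomato;H11LSL-Cas9 mice on a mixed C57BL/6J:129 background, in which viral Cre starts the tumors and switches on the tdTomato reporter and Cas9. The 7 sgInert libraries came from tumors started with Lenti-sgNeo1/sgNT/sgNeo2/Cre, whose guides have no functional target. The 7 sgCebpa/b/d libraries came from Lenti-sgCebpa/sgCebpb/sgCebpd/Cre, aimed at the C/EBP transcription factors Cebpa, Cebpb and Cebpd, and the 5 sgLkb1 libraries from Lenti-sgLkb1/Cre, aimed at the tumor suppressor kinase gene Lkb1, listed as Stk11. All groups received the same viral dose by the trachea, and tumors grew for 17 weeks. Ages at infection were not given per library. Tumors were microdissected and cells positive for CD45, CD31, F4/80 or Ter119, which mark blood and endothelial cells, were removed by sorting. Each library therefore holds cells from tumors in which Cas9 may have cut each target differently, and not a clone.

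Depth ran from 2760722 to 9944131 assigned fragments per library with a median of 6028918. The sgInert group held 3 female and 4 male libraries, the sgCebpa/b/d group 4 female and 3 male, and the sgLkb1 group 5 female. Sample titles carried an MT animal number (3 sgInert, 4 sgCebpa/b/d and 3 sgLkb1 libraries), a ZR number (4 sgInert libraries) or no number (3 sgCebpa/b/d and 2 sgLkb1 libraries). Some libraries shared an animal (2, 3 and 2 libraries of the groups in that order), so p-values treat as separate some libraries that are not. In CPM (each count divided by the scaled library total), Stk11 stood at 19.5 to 22.9 in sgInert libraries and at 7.53 to 12.5 in sgLkb1 libraries, with no overlap. Transcripts of the C/EBP targets were not lower in sgCebpa/b/d libraries, and Cebpa was called higher (0.729 log2 against sgInert, edgeR adjusted p = 0.00148). Cebpa stood at 71.9 to 125 CPM there against 42.7 to 68.9 CPM in sgInert libraries. Cebpb stood at 3.98 to 23.6 against 3.06 to 6.58 CPM, and Cebpd at 55.0 to 166 against 43.0 to 122 CPM. The sgCebpa/b/d libraries with no animal number held the upper values, Cebpb at 15.82 to 23.59 and Cebpd at 152.5 to 166.4 CPM. The MT-numbered ones had 3.982 to 5.11 and 55.03 to 80.91 CPM. Cutting by Cas9 need not lower a transcript, so these levels do not check that label. The 7 ATII markers summed to 57120 to 69370 CPM in sgInert, 32170 to 59710 CPM in sgCebpa/b/d and 37130 to 49030 CPM in sgLkb1 libraries. Within sgCebpa/b/d the male libraries with no animal number summed to 32170, 33530 and 41020 CPM. The female MT-numbered ones summed to 52800 to 59710 CPM, which reached the sgInert range. ATII markers were thus abundant in every group, and some of them fell. Of the 7, 4 were called lower in sgCebpa/b/d, among them Abca3 (-1.33) and Lamp3 (-1.02), and 3 in sgLkb1, among them Sftpa1 (-1.08) and Lamp3 (-0.76). All sgLkb1 sums lay below all sgInert sums, and the part of these changes in the falls of complement genes given next was not tested.

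The promoters of the members that fell in sgCebpa/b/d libraries are shown first, because the guides of that group target transcription factors that bind DNA. RefSeq promoters (GRCm38.p6, 250 bases before to 50 bases after the start) were listed for 3 of the 6 members. Capitals mark a match to the C/EBP letters TTGCNNAA (other strand TTNNGCAA).
Hc, chr2:35061363-35061662, minus strand: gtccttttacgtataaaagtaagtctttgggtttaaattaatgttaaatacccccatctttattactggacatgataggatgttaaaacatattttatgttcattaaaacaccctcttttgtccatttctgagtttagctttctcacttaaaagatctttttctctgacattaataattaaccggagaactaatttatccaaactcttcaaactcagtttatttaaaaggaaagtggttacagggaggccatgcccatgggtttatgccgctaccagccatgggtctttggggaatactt
C3, chr17:57228087-57228386, minus strand: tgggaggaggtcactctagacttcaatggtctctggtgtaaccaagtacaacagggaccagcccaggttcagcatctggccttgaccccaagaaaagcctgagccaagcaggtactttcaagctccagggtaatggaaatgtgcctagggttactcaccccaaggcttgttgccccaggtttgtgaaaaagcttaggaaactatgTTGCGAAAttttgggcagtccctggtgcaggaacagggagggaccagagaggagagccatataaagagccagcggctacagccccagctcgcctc
Cd55, chr1:130462695-130462994, minus strand: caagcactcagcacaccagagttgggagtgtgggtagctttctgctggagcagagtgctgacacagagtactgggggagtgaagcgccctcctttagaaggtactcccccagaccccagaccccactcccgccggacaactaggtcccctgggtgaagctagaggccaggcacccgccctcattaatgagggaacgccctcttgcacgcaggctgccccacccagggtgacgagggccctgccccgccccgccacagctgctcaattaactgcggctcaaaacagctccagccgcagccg
The C3 window held 1 match, TTGCGAAA at chr17:57228174-57228181, whose first base lies 45 bases before the start. The Hc and Cd55 windows held none. Among all 32851 promoters of this length, 3547 (10.8%) held the pattern. The looser letters TTNNGNAA (other strand TTNCNNAA), which include every match to the stricter pattern, were found in 40.7% of promoters, among them those of Hc and C3. The promoter of C6, a gene outside the 6 that fell further than C3 in sgCebpa/b/d (given below), held no match to the stricter pattern. It held matches to the looser one. A match describes the letters in the window and is no evidence of binding.

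The genes lie on mouse chromosomes 1, 2 and 17, all on the minus strand, and all are protein coding (GRCm38, GENCODE M21). Hc spans chr2:34983331-35061438 and Serping1 chr2:84765387-84775444. Cd55 spans chr1:130439027-130462744. C3 spans chr17:57203970-57228136, C4b chr17:34728380-34743882 and Cfb chr17:34856374-34862518. C4b and Cd55 have near copies that could share reads: 23.5% of 75-base windows of the longest C4b transcript also occur in C4a transcripts, and 7.55% of those of Cd55 in Cd55b transcripts. C4a was listed at 0 to 5.52 and Cd55b at 0 to 24.3 estimated counts per library.

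In sgInert cells the 6 genes spanned a wide range of levels. In TPM, which scale each library to the same total and adjust for transcript length, Hc had a median of 1589 (range 1031 to 2186) and ranked 42 among all genes. Cd55 followed at 139 (94.95 to 174) and C3 at 92.2 (59.7 to 158), with Cd55 above C3 in 6 of 7 libraries. Serping1 stood at 7.33 (1.28 to 13.5), Cfb at 1.28 (0 to 3.08) and C4b at 0.52 (0.03 to 1.25). The neighbours Cfb and C4b were not separated, since Cfb was above C4b in 5 of 7 libraries. The RNA of C5 was thus by far the most abundant of the 6, with C3 and its membrane regulator next and the C4 and factor B genes near the limit of detection.

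The order of TPM levels was not the same in each group. In sgCebpa/b/d cells the medians were 573 for Hc, 93.9 for Cd55, 17.2 for C3, 6.86 for Serping1, 2.77 for C4b and 1.59 for Cfb, and each gene was above the next in 7 of 7 libraries. In sgLkb1 cells they were 643 for Hc, 112 for Cd55, 105 for C3, 14.4 for Serping1, 1.93 for Cfb and 1.78 for C4b. There Cd55 was above C3 in 3 of 5 libraries and Cfb above C4b in 3 of 5, so neither pair was ordered beyond its spread.

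The values below are CPM with library sizes scaled by the trimmed mean of M-values method (TMM). The changes come from 1 edgeR quasi-likelihood fit of all 19 libraries, and a gene was called at an adjusted p (Benjamini-Hochberg over 13986 genes) under 0.05. The comparisons of sgCebpa/b/d and of sgLkb1 with sgInert share their sgInert libraries and are not independent.

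**Figure D1:**
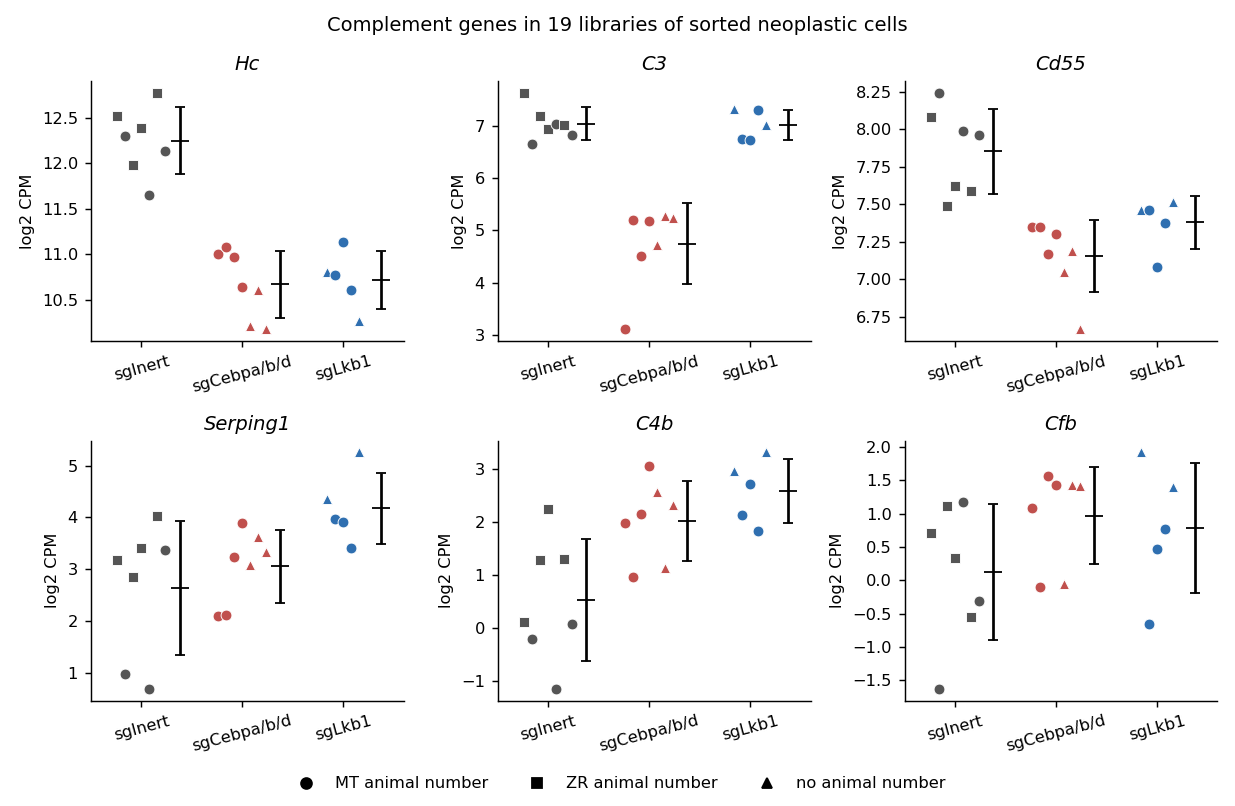
Log2 CPM of the 6 complement genes (y axes, with separate ranges) in each library of the 3 groups (x axes). Point shape gives the kind of animal number in the sample title, and bars at the right of each group give the mean and SD. Hc was lower in both targeted groups than in every sgInert library, and C3 was lower only in the sgCebpa/b/d libraries.

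C3 differed in sgCebpa/b/d cells and not detectably in sgLkb1 cells. In sgInert libraries C3 stood at 99.5, 113, 123, 129, 131, 145 and 197 CPM. In sgCebpa/b/d libraries it stood at 8.33, 22.6, 25.9, 35.8, 36.6, 37.6 and 38.2 CPM. In sgLkb1 libraries it stood at 106, 107, 128, 156 and 159 CPM. Every sgCebpa/b/d library was below every library of the other groups, and the sgLkb1 values lay inside the sgInert range. C3 fell 4.50-fold in sgCebpa/b/d against sgInert (log2 fold change -2.17 ± 0.226 SE, edgeR adjusted p = 1.25e-06). Against sgLkb1, C3 fell 4.41-fold in the sgCebpa/b/d libraries (-2.14 ± 0.237 SE, edgeR adjusted p = 6.03e-06). Between sgLkb1 and sgInert the log2 difference was -0.03 with a 95% interval from -0.51 to 0.46 (edgeR adjusted p = 0.969). Without the lowest library, sgCebpa/b/d replicate 1 at 23 counts and the least deep of all, the change against sgInert was -2.03.

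Hc, the most abundant of the 6, was lower in both targeted groups. Its sgInert values were 3203, 4037, 4492, 5023, 5370, 5887 and 6997 CPM. Its sgCebpa/b/d values were 1154, 1188, 1553, 1592, 1995, 2048 and 2167 CPM. Its sgLkb1 values were 1225, 1560, 1745, 1792 and 2243 CPM. The targeted groups overlapped each other and neither reached the lowest sgInert library. Hc fell 2.99-fold in sgCebpa/b/d (-1.58 ± 0.177 SE, edgeR adjusted p = 2.96e-06) and 2.92-fold in sgLkb1 (-1.55 ± 0.199 SE, edgeR adjusted p = 5.3e-05). Between the targeted groups the log2 difference was -0.04 (95% interval -0.43 to 0.36, edgeR adjusted p = 0.947), so a difference of the size seen against sgInert lies outside the interval. Within the MT-numbered libraries alone the changes were -1.13 and -1.21. The ZR-numbered sgInert libraries stood at 4037 to 6997 CPM and the MT-numbered ones at 3203 to 5023 CPM, so the range of the first reached higher.

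**Figure D2:**
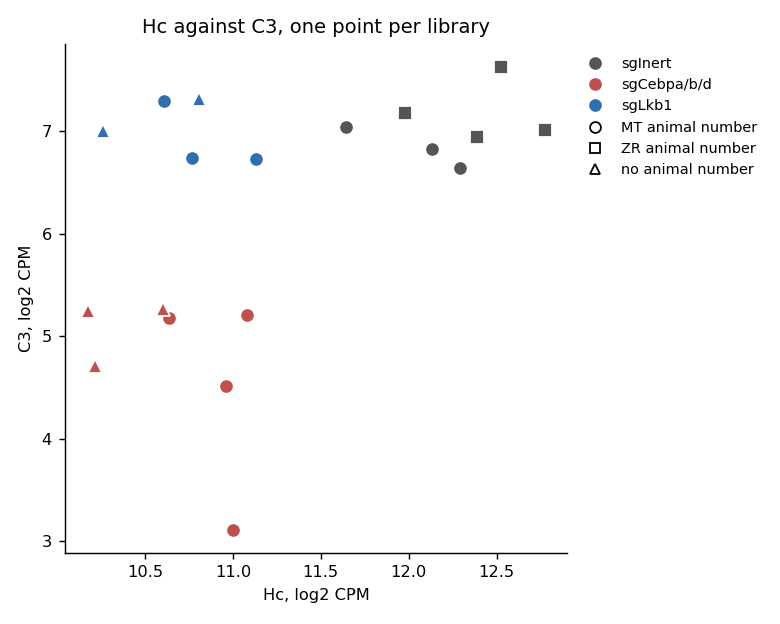
Log2 CPM of Hc (x axis) against C3 (y axis), 1 point per library, coloured by group and shaped by the kind of animal number. The sgInert libraries lie high on both axes, the sgLkb1 libraries low in Hc and level with sgInert in C3, and the sgCebpa/b/d libraries low in both.

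Cd55, which protects host cells from C3 convertases, fell by a smaller amount. It stood at 179, 192, 196, 248, 253, 270 and 302 CPM in sgInert libraries. It stood at 101, 132, 144, 145, 158, 162 and 163 CPM in sgCebpa/b/d libraries, all below the sgInert range. In sgLkb1 libraries it stood at 135, 165, 176, 176 and 183 CPM, where the highest library overlapped the lowest of sgInert. The fall was 1.64-fold in sgCebpa/b/d (-0.71 ± 0.124 SE, edgeR adjusted p = 0.000557). It was 1.41-fold in sgLkb1 (-0.49 ± 0.137 SE, edgeR adjusted p = 0.0345), and 4 of 13 alternative analyses lost that call. Leaving out any of sgInert replicates 1, 2, 5 and 7 or of the sgLkb1 replicates also lost it, with adjusted p up to 0.109. The targeted groups differed by -0.22 (95% interval -0.50 to 0.06, edgeR adjusted p = 0.418).

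**Figure D3:**
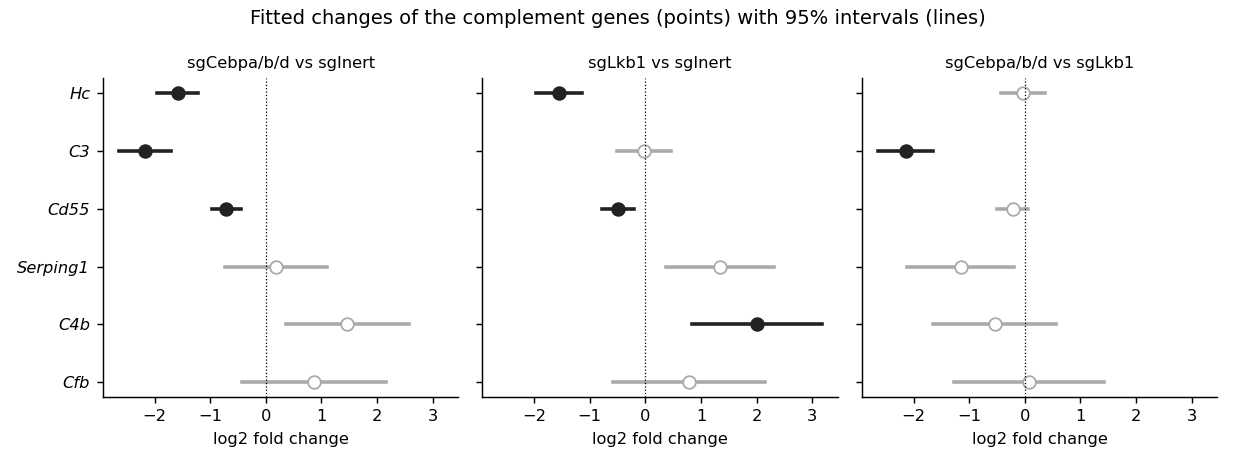
Fitted log2 fold changes (x axes) of the 6 genes (y axis) in the 3 comparisons, as points with 95% intervals as lines. Filled black points passed an adjusted p of 0.05. Hc, C3 and Cd55 had short intervals, and those of Serping1, C4b and Cfb, counted from few fragments, were wider.

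C4b, of the classical and lectin routes, was higher in sgLkb1 cells, from low counts. Its estimated counts were 1 to 19 (median 4.34) in sgInert, 10 to 47 (median 24.9) in sgCebpa/b/d and 25.7 to 66 (median 41) in sgLkb1 libraries. In CPM these were 0.129, 0.546, 0.731, 0.754, 2.12, 2.16 and 4.43 for sgInert, and 3.24, 4.08, 6.22, 7.499 and 9.61 for sgLkb1. The highest sgInert library, replicate 4, lay inside the sgLkb1 range. C4b rose 4.02-fold in sgLkb1 (2.01 ± 0.56 SE, edgeR adjusted p = 0.0345), and 6 of 13 alternatives lost the call, with adjusted p up to 0.253. So did leaving out any of sgInert replicates 1, 2 and 7 or sgLkb1 replicates 1, 3 and 5, with adjusted p up to 0.109. In sgCebpa/b/d libraries C4b stood at 1.63 to 7.97 CPM, a log2 difference of 1.47 ± 0.532 SE that did not pass (edgeR adjusted p = 0.086). It passed in 5 of 13 alternatives, and without sgInert replicate 4 (adjusted p = 0.0171). Between the targeted groups the difference was -0.54 (95% interval -1.65 to 0.57).

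Serping1, the inhibitor of C1r and C1s, had its highest values in sgLkb1 libraries, without passing the test. It stood at 1.29, 1.64, 6.89, 8.68, 9.99, 10.2 and 16.0 CPM in sgInert libraries. It ranged from 3.98 to 14.6 CPM (median 9.07) in sgCebpa/b/d and stood at 10.3, 14.7, 15.4, 20.1 and 37.9 CPM in sgLkb1 libraries. The log2 difference of sgLkb1 from sgInert was 1.34 ± 0.469 SE (95% interval 0.36 to 2.31, edgeR adjusted p = 0.103). It passed in 3 of 13 alternatives, and also without sgInert replicate 6 (adjusted p = 0.0438). For sgCebpa/b/d against sgInert the difference was 0.19 (95% interval -0.73 to 1.10), and for sgCebpa/b/d against sgLkb1 -1.15 (95% interval -2.12 to -0.19, edgeR adjusted p = 0.172).

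Cfb, the protease subunit of the alternative C3 convertase, was too low to compare closely. It was counted 0 to 15 times in sgInert, 4 to 16 times in sgCebpa/b/d and 2 to 30 times in sgLkb1 libraries. The log2 differences from sgInert were 0.86 (95% interval -0.42 to 2.15) in sgCebpa/b/d and 0.79 (95% interval -0.58 to 2.16) in sgLkb1, with edgeR adjusted p = 0.445 and 0.59. A change smaller than these intervals was not detectable at this depth.

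Markers of other cell types differed between libraries, and their values are given beside C4b and Serping1. The 6 fibroblast markers (Col1a1, Col1a2, Col3a1, Dcn, Lum and Pdgfra) summed to 10.8 to 142 CPM in sgInert libraries, 59.5 to 230 CPM in sgCebpa/b/d and 94.5 to 244 CPM in sgLkb1. All 6 markers had positive log2 changes in both targeted groups, with medians of 1.496 in sgCebpa/b/d and 1.705 in sgLkb1. Of the 6, 2 were called higher in each group, Dcn (2.88 and 2.84 log2) and Col3a1 (1.52 and 1.70). Lum was at 0 in 5 of 7 sgInert libraries and Dcn in 1. Serping1 differed by 0.19 in sgCebpa/b/d against sgInert and was not called in either group. In sgInert libraries the fibroblast sums, in rising order, were 10.75, 10.96, 19.24, 41.62, 56.77, 70.35 and 142.2 CPM. Serping1 in the same libraries and order stood at 1.639, 1.29, 9.988, 6.892, 8.676, 10.25 and 16.02 CPM. C4b, again in that order, stood at 0.5465, 0.129, 0.7308, 2.121, 0.7545, 4.426 and 2.16 CPM. In sgCebpa/b/d replicates 2, 1, 6, 4, 5, 3 and 7 the sums were 59.45, 112.6, 161.9, 222.5, 222.5, 223.4 and 230.3 CPM. Serping1 in that order stood at 3.984, 3.982, 12.01, 14.58, 8.151, 9.067 and 9.702 CPM. C4b stood at 1.634, 3.62, 1.861, 7.966, 5.594, 4.121 and 4.684 CPM. The highest sum of all (243.6 CPM) and the highest Serping1 (37.86 CPM) were both in sgLkb1 replicate 5. Mesothelial Msln rose only in the sgLkb1 group (3.18 log2 against sgInert, 6.58 to 17.2 CPM against 0 to 3.45 CPM), and Upk3b, Lrrn4 and Wt1 were at or near 0. Sums of 9 macrophage markers stood apart in the libraries with no animal number, at 98.5, 120 and 139 CPM in sgCebpa/b/d and at 53.9 and 135 CPM in sgLkb1. They were 4.71 to 10.6 and 8.15 to 12.4 CPM in the MT-numbered libraries of these groups and 6.82 to 38.2 CPM in sgInert. The same sgLkb1 libraries, replicates 5 and 1, had the highest C4b and Serping1 values of all groups but for 1 sgCebpa/b/d library in C4b. Without the libraries lacking an animal number the sgLkb1 changes were 1.57 for C4b and 0.79 for Serping1 (edgeR adjusted p = 0.253 and 0.536). Among MT-numbered libraries alone, 3 sgInert and 3 sgLkb1, the changes were 3.33 and 1.72 (edgeR adjusted p = 0.0148 and 0.151). Of those 3 libraries 2 shared an animal in each group, and the p-values treat them as separate. Neutrophil marker sums were 15.1 to 26.6 CPM in the sgCebpa/b/d libraries with no animal number, 3.46 to 7.66 CPM in the MT-numbered ones, 2.66 to 7.57 CPM in sgLkb1 and 0.244 to 6.41 CPM in sgInert, and 1 of the 2 tested markers was called higher in sgCebpa/b/d against sgInert. The part of these cells in the C4b and Serping1 values was not tested, and in bulk libraries fewer cells of a type and less RNA per cell cannot be told apart.

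**Figure D4:**
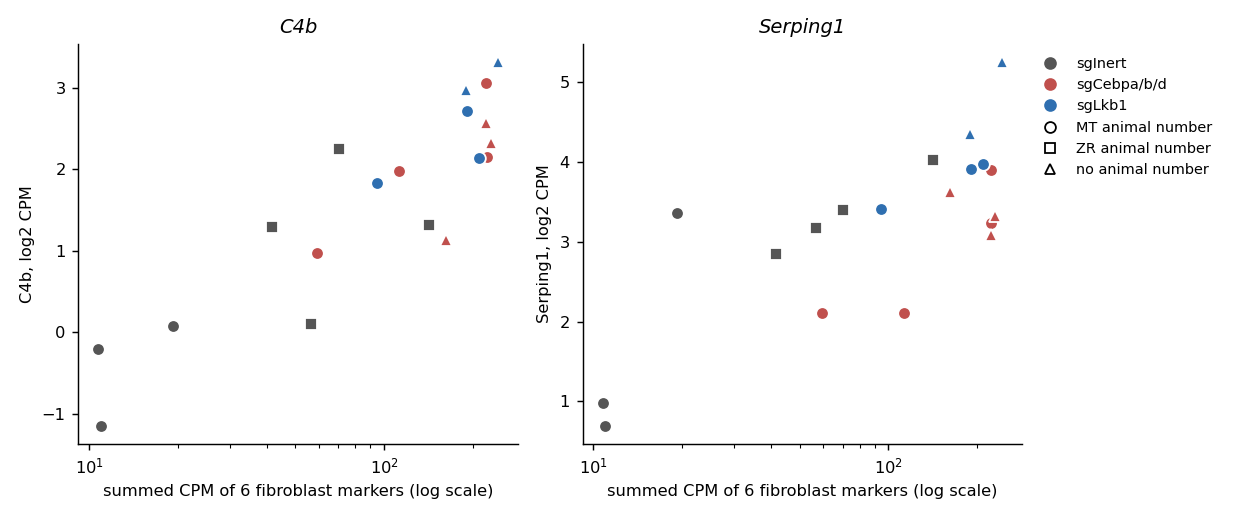
Log2 CPM of C4b (left) and Serping1 (right) against the summed CPM of 6 fibroblast markers (x axes, log scale), 1 point per library, coloured by group and shaped by the kind of animal number. All 5 sgLkb1 libraries had sums of 94.5 CPM or more, and the 5 lowest sums were those of sgInert libraries.

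In counts, 3 of the 6 genes were called in sgCebpa/b/d against sgInert, all lower, where 10.1% of all tested genes were called (5.36% lower and 4.73% higher). In sgLkb1 against sgInert 3 were called, 2 lower and 1 higher, against 5.78% of all genes (2.97% lower and 2.81% higher). In sgCebpa/b/d against sgLkb1 only C3 was called, lower, against 5.96% of all genes (3.12% lower and 2.83% higher). The groups did not overlap for 3, 1 and 1 of the 6 genes, against 3.37%, 4.15% and 5.08% of all genes. The 6 genes had a median log2 change of -0.26, 0.38 and -0.38 in these comparisons, beside 0.02, -0.01 and 0.03 over all genes. Since the 6 were chosen with earlier results of these data known, these counts cannot show that they stand out as a set.

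The rest of the pathway was read from a list of 49 further complement genes, of which 22 passed the filter. In each targeted group against sgInert 3 of the 22 were called, namely C6 and Cd59a, lower, and Cd93, higher. Over all genes 10.1% were called in sgCebpa/b/d and 5.78% in sgLkb1, so the counts alone say little about the list. The median over the 22 was -0.15 in sgCebpa/b/d and 0.04 in sgLkb1. Between the targeted groups edgeR called 0 of 22 (5.96% of all genes), DESeq2 also 0, and 4 had an unadjusted p under 0.05.

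C6, the protein that follows C5 in the pore, had the largest fall of the list. It stood at 204, 275, 280, 290, 293, 357 and 375 CPM in sgInert libraries. It stood at 5.27, 7.95, 8.53, 20.4, 26.4, 31.5 and 58.2 CPM in sgCebpa/b/d libraries and at 22.5, 37.1, 51.1, 58.0 and 66.0 CPM in sgLkb1 libraries. Neither targeted group reached the sgInert range, also among MT-numbered libraries alone (280 to 293 CPM in sgInert). The fall was 12.9-fold in sgCebpa/b/d (-3.69 ± 0.403 SE, edgeR adjusted p = 2.16e-06) and 6.32-fold in sgLkb1 (-2.66 ± 0.434 SE, edgeR adjusted p = 0.000615). The 3 lowest sgCebpa/b/d libraries were those with no animal number, which were also the male ones. Of the later pore proteins, C7 passed the filter and was not called, C8a, C8b and C9 had no counts, and C8g had at most 4.

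Cd59a, which blocks completion of the pore on host cells, fell 2.22-fold in sgCebpa/b/d (11.5 to 24.4 CPM against 30.6 to 49.2 CPM, edgeR adjusted p = 6.78e-05). In sgLkb1 libraries, at 18.2 to 30.9 CPM, it fell 1.55-fold (edgeR adjusted p = 0.0376). The sgCebpa/b/d call held in all 13 alternatives and with each of the 19 libraries left out. The sgLkb1 call was lost in 8 of 13 alternatives (adjusted p up to 0.229) and on leaving out any 1 of sgInert replicates 1, 3, 4, 5 and 7, sgCebpa/b/d replicate 2 and sgLkb1 replicates 1, 2, 4 and 5 (up to 0.129). The other 5 membrane regulators past the filter (Cd46, Cr1l, Cr2, Csmd1 and Susd4) were not called.

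Cd93, a receptor best known from endothelial cells, rose 5.02-fold in sgCebpa/b/d (10.5 to 153 CPM against 0.932 to 16.8 CPM, edgeR adjusted p = 0.0115) and 4.46-fold in sgLkb1 (25.9 to 93.6 CPM, edgeR adjusted p = 0.0394). Endothelial markers are given beside it. Pecam1, Cdh5, Kdr and Cldn5 summed to 5.36 to 36.8, 9.73 to 172 and 30.0 to 129 CPM in sgInert, sgCebpa/b/d and sgLkb1 libraries. All 4 had positive log2 changes in both targeted groups, and 3 of the 4 were called higher in sgCebpa/b/d. In sgLkb1 these 4 markers did not pass (edgeR adjusted p = 0.0846, 0.0795, 0.0831 and 0.753). Their part in Cd93 was not tested. The sgCebpa/b/d libraries with no animal number had 69.4 to 153 CPM of Cd93 and the MT-numbered ones 10.5 to 28.6 CPM. Among MT-numbered libraries alone the sgCebpa/b/d change was 0.02 (edgeR adjusted p = 0.982), and 5 of 13 alternatives lost that call. In sgLkb1 the call was lost in 2 of 13 alternatives (adjusted p up to 0.432) and on leaving out any 1 of sgInert replicates 1, 2, 3, 4, 5 and 7 and sgLkb1 replicates 1, 2, 4 and 5 (up to 0.129).

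**Figure D5:**
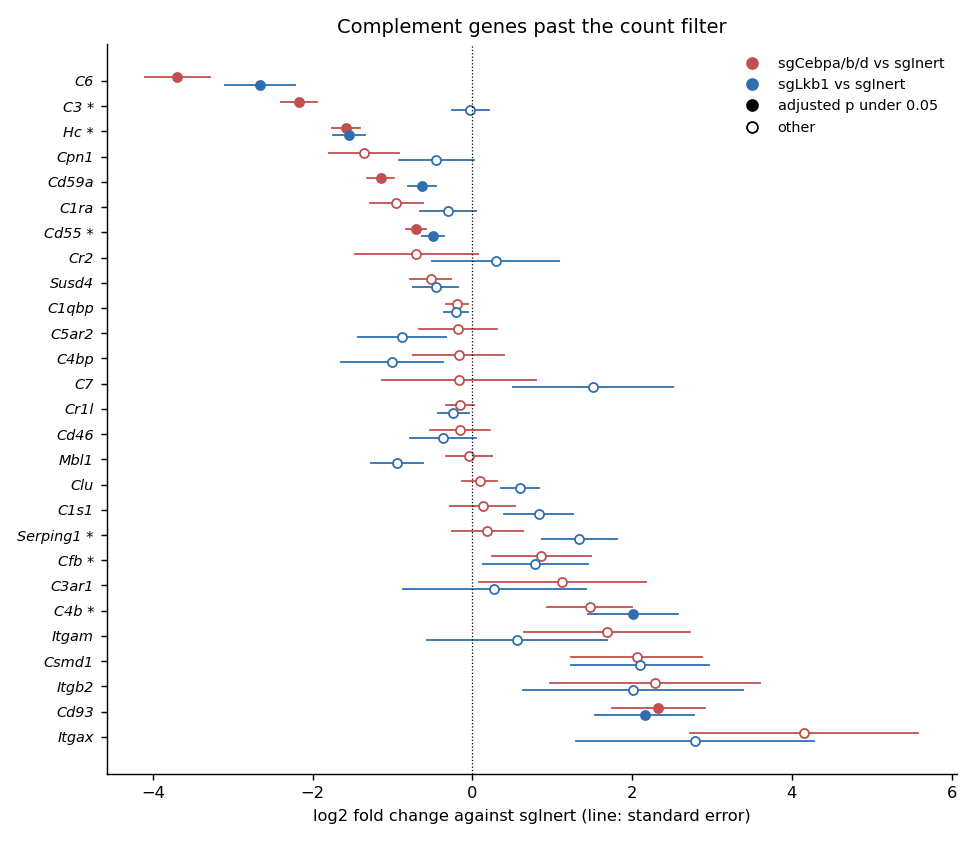
Log2 fold changes against sgInert (x axis, with standard errors as lines) of complement genes past the filter (y axis), with the 6 members starred. Filled points passed an adjusted p of 0.05. C6, C3, Hc, Cd59a and Cd55 lie on the lower side in sgCebpa/b/d, and C3 is the called gene among them that lies near 0 (-0.03) in sgLkb1.

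RNA of most initiating components was scarce. Mbl1, a mannose-binding lectin that starts the lectin route, was counted in every library at 3.34 to 17.8 CPM and was not called. Of the list, 27 genes did not pass the filter, among them C1qa, C1qb and C1qc (at most 8, 33 and 17 counts), C2 (at most 7), Cfp (at most 11) and Cfd, Mbl2, Fcnb and Colec11, listed at 0 in every library. C1ra and C1s1 passed and were not called in any comparison, with C1ra at -0.95 (edgeR adjusted p = 0.0714) in sgCebpa/b/d. Among the soluble regulators past the filter, Cpn1 differed from sgInert by -1.36 in sgCebpa/b/d and did not pass (edgeR adjusted p = 0.054).

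Liver acute phase genes, many of which are known C/EBP targets, were read beside C3, itself an acute phase gene. Of 20 listed genes 9 passed the filter. The shares called over all genes in the 3 comparisons given next were 10.1%, 5.78% and 5.96%, in that order. In sgCebpa/b/d against sgInert 3 were called, all lower: Lcn2 (-1.88), Itih4 (-1.81) and Steap4 (-1.65). In sgLkb1 against sgInert 3 were called, all higher: Steap4 (1.46), Itih4 (1.03) and Cp (1.34). These calls lay near the threshold (edgeR adjusted p = 0.0252, 0.0446 and 0.049), and the ranges of the 2 groups overlapped for each gene. In sgCebpa/b/d against sgLkb1 4 were called, all lower, and they were Steap4, Itih4, Lcn2 and Orm1 (-3.10, -2.84, -1.45 and -2.95). The median change over the 9 was -0.08, 1.01 and -1.31 in these comparisons. C3, like Lcn2, Itih4 and Steap4, was called lower in sgCebpa/b/d against either group and, unlike Itih4 and Steap4, was not called in sgLkb1 against sgInert. Against sgInert the list as a whole was split in sgCebpa/b/d, with 4 genes above and 5 below 0.

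The pattern of each gene over the 19 libraries was set beside those of 11087 genes with an edgeR average log2 CPM above 2, by the root mean square difference of mean-centred log2 CPM (11088 for Cfb). The nearest pattern to Hc was that of Selenop, the secreted selenium carrier (0.304, where the spread of Hc itself was 0.822), and then Tmem8 (0.367). The nearest to C3 were Cyp4v3 (0.55) and Cth (0.561), against its own spread of 1.203. The nearest to Cd55 were Uhrf1bp1l (0.193) and Cd36 (0.204), against 0.378. C4b lay nearest to Fbn1 (0.549), against 1.19, and Serping1 to Gpx3 (0.561) and Fbn1 (0.565), against 1.07. Fbn1, a fibrillin of the extracellular matrix, was thus on both lists. Cfb lay nearest to Hsd11b2 (0.599) and Gm11868 (0.635), against 0.916. Among the 6 genes themselves the closest pairs were Hc with Cd55 (0.598) and C4b with Serping1 (0.815), and the farthest was C3 with C4b (1.89).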

How the data were processed

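RNA of sorted neoplastic cells was measured in 19 libraries made with the Trio RNA-Seq kit. The authors aligned paired reads to mm10 with STAR 2.6.1d and estimated abundances with RSEM 1.2.30. The deposited values used here were RSEM expected counts and, for levels between genes, the TPM values that the authors deposited beside them. Files of the authors' own DESeq2 1.26.0 comparisons and a normalized table were not used. The 6 genes and all lists were chosen with earlier results of these data known.

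Expected counts were rounded, filtered (filterByExpr, minimum count 10, minimum total 15), scaled by TMM and fitted in edgeR 4.0.16 (R 4.3.3) with group as the only term. P-values were adjusted by Benjamini-Hochberg over 13986 genes, and log2 CPM used a prior count of 2. The 95% intervals used the moderated degrees of freedom. Genes named were the 6 members, listed complement genes called in any comparison, C4a and Cd55b, the targeted genes, at most 4 acute phase genes per comparison by smallest p, and the 2 nearest patterns per member. Some items are not reported here. The settings applied to C6, Cd59a and Cd93 were chosen after seeing the data. Genes named because they did not pass the filter or were not called, and the markers, were chosen after their values were seen. The fit was tested on simulated data. Alternatives were DESeq2 1.42.0, RLE size factors, limma 3.58.1 on log2(TPM + 1), length offsets, no filter, sex or title series as covariates, subsets of libraries, animals summed, a replicate block and leaving out each library. Intervals and p-values cover counting error and the spread between libraries, and reads carry no molecular identifiers here. No replicate files agreed within sampling noise.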

Additional observations from a re-analysis of the deposited data

Results flagged for a closer look

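C3 in sgCebpa/b/d replicate 1 stood apart from its group. Its log2 CPM was 3.11 and the next lowest library was at 4.52, a gap of 0.652 of the range of the 7 libraries. Of 18 groups of values tested in this way 1 was picked out, and chance alone picks about 1 in 20. That library had 23 C3 counts and the lowest depth of all. Without it C3 was still lower in sgCebpa/b/d than in sgInert (-2.03 log2, edgeR adjusted p = 1.92e-07) and than in sgLkb1 (-1.998 log2, edgeR adjusted p = 7.66e-07).

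The effect on C3 differed between the targeted groups. The effect in sgCebpa/b/d minus that in sgLkb1 was -2.14 on the log2 scale (edgeR adjusted p = 6.03e-06). All 7 sgCebpa/b/d libraries were below all 5 sgLkb1 libraries.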

How the results depend on the processing

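Each change was recomputed under 13 alternatives and without each of the 19 libraries. Hc in both targeted groups against sgInert, C3 in sgCebpa/b/d against either group, Cd55 in sgCebpa/b/d against sgInert and Stk11 in sgLkb1 kept direction and call in all of them. Of 607 recomputed values 545 did so, 25 lost the call, 10 gained it and 27 changed sign, the last among changes that were not called. The cause was not tested. Groups differed in sex and in the kind of animal number, and low counts limit C4b, Cfb and Serping1.

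Members called in sgLkb1 against sgInert numbered 1, in place of 3, with libraries of an animal summed and without libraries lacking an animal number. Over all genes 532 of 14204 and 525 of 14080 were called in these alternatives, in place of 809 of 13986. Members called in that comparison numbered 1 to 4 with each library left out (1 without sgInert replicates 1, 2 or 7 or sgLkb1 replicates 1, 3 or 5). With an absolute log2 fold change above 1 also asked for, an alternative chosen after seeing the data, members called were 2, 2 and 1 in the 3 comparisons. Other complement genes called in sgCebpa/b/d against sgInert numbered 5 with DESeq2 in place of 3, where genes called over all numbered 1819 in place of 1412. With each library left out the other complement genes called numbered 3 to 5 there, 1 to 5 in sgLkb1 against sgInert and 0 to 1 between the targeted groups.

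The log2 change of C3 in sgLkb1 turned positive with MT-numbered libraries (0.10), female libraries (0.15), limma on TPM (0.21), no filter (0.007), sex (0.17) or title series (0.077) as a covariate, and ranged from -0.10 to 0.09 with libraries left out. Between the targeted groups Hc turned positive with MT-numbered libraries (0.076), female libraries (0.186), sex as a covariate (0.024) and without libraries lacking an animal number (0.075), and ranged from -0.136 to 0.079 with libraries left out. In the same comparison C4b turned positive with length offsets (0.54) and limma (0.21), and Cfb negative with length offsets (-0.48), animals summed (-0.23) and limma (-0.30), ranging from -0.18 to 0.49 with libraries left out. Cfb in sgLkb1 was -0.079 without libraries lacking an animal number, and Serping1 in sgCebpa/b/d ranged from -0.014 to 0.476 with libraries left out. Limma on TPM moved the median of all genes to 0.18 in sgLkb1 against sgInert. Cfb in sgLkb1 could not be tested with only those groups in the fit.

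Replicate numbers did not pair libraries (correlations of deviations from -0.147 to 0.232 over 17 pairs, 2 above 0.1). With the replicate block Serping1 in sgLkb1 passed (1.83 log2, edgeR adjusted p = 0.0438), C4b there kept its call (2.25 log2, edgeR adjusted p = 0.0493), and the genes called over all numbered 1293, 873 and 661 in place of 1412, 809 and 833.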
